A study of Homo sapiens with 9 samples.

Results

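The genes described are 10 enzymes of glycolysis: HK1, HK2, ALDOA, ALDOC, TPI1, PGK1, PGAM1, ENO1, ENO2 and PKM. They were chosen by symbol, with earlier results of these data known. Ensembl identifiers of the expression table were matched to symbols, and 9 of the 10 had a row among 22290 genes. ALDOC was not analysed here. The study sequenced mRNA libraries made from total RNA of IMR-32, an established line of human neuroblastoma. It compared cells with altered amounts of TRAP-1, a mitochondrial chaperone of the HSP90 family. The 9 libraries form 3 groups of 3: parental cells (genotype WT), cells labelled TRAP-1 knockdown (KD) and cells labelled TRAP-1 overexpression (OE). All were grown in the same serum-containing medium with no further treatment stated, and how the KD and OE cells were made, or whether each is 1 clone, is not given in the sources used here. The values are regularized log2 values (rlog), which are scaled for library size and pull each gene toward its own mean, so a difference of rlog values understates a fold change and is given here only as a difference. The methods state 1 coverage in reads for the sequencing, and the reads counted in each library cannot be read from rlog values. Nothing states that the 3 libraries of a group came from separate cultures, so p-values measure only the spread between these samples.

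Glycolysis turns glucose into pyruvate in 10 enzymatic steps, and tumour cells often run it fast even with oxygen present. Most steps can be catalysed by isoenzymes from separate genes that differ in tissue distribution and regulation: HK2 and the aldolase, phosphoglycerate kinase and enolase genes include known targets of hypoxia-inducible factors, and ENO2 is the neuron-specific enolase used as a marker of neural tumours. PKM makes the M1 and M2 forms of pyruvate kinase by alternative splicing, which values per gene cannot tell apart.

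The targeted gene did not follow the labels. TRAP1 (ENSG00000126602) stood at rlog 10.67, 10.66 and 10.65 in the parental libraries, 10.79, 10.79 and 10.83 in the libraries labelled KD and 10.67, 10.63 and 10.74 in those labelled OE. Each KD value exceeded each parental value, while the OE values overlapped parental. The difference was 0.14 in KD (standard error 0.025, adjusted p = 1.8e-05 from limma) and 0.02 in OE (adjusted p = 0.64). Exons of other genes cover 28.5% of the exonic bases of TRAP1. KD and OE below therefore name the labels of libraries, and no direction of TRAP-1 RNA is implied.

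The defining genes of the labelled cell type were checked as well. Of 16 adrenergic neuroblastoma markers 10 had values, and 5 of these had a mean rlog under 5. MYCN, the oncogene amplified in IMR-32, lay between 2.46 and 2.61 over the 9 libraries, and PHOX2A, a factor that specifies noradrenergic neurons, between 1.30 and 1.40. ISL1 was the most abundant of the list, with a mean of 9.29. Of the epithelial markers 9 of 13 had values, led by KRT18 with a mean of 12.04, and 4 had a mean under 5, among them EPCAM at 2.58. The Schwann cell markers ERBB3 (14.13) and S100B (11.19) were each above every adrenergic marker. Fibroblast markers (6 of 6 with values, 5 with a mean under 5, led by PDGFRB at 8.53) and blood markers (2 of 5 with values, led by LYZ at 5.82) were lower. MYCN and PHOX2A near the bottom of the scale are thus at odds with the label of an adrenergic neuroblastoma line, and the libraries are called by their labels only.

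On the log2 scale the summed linear values of the adrenergic list lay between 10.64 and 10.67 in parental, 10.51 and 10.55 in KD and 10.55 and 10.63 in OE. For the epithelial list they lay between 12.70 and 12.71 in parental, 12.77 and 12.82 in KD and 12.57 and 12.58 in OE. ERBB3 alone had rlog values of 14.00, 13.98 and 13.97 in parental, 14.29, 14.31 and 14.28 in KD and 14.10, 14.11 and 14.11 in OE. The fibroblast list ran from 8.67 to 8.76 in parental, 8.68 to 8.85 in KD and 8.79 to 8.84 in OE, and the blood list from 6.10 to 6.15, 5.83 to 5.87 and 5.90 to 6.04. The epithelial sums, the blood sums and ERBB3 thus did not overlap between groups, as was the case for several glycolytic genes. The adrenergic sums of KD and OE overlapped each other but lay below all parental ones, and the fibroblast sums of OE lay above all parental ones. The part of these markers in the results below was not tested. Lack of overlap was common over all 22290 genes. Against parental, 6587 genes lay wholly above and 6598 wholly below in KD, and 4734 and 4901 in OE. Between OE and KD these counts were 6146 and 5903. S100B, unlike ERBB3, overlapped parental in KD (difference 0.0057, adjusted p = 0.84 from limma) and was higher by 0.29 in OE (adjusted p = 5.1e-13). Of the 9 epithelial markers 2 were called higher in KD, KRT8 and DSP, and 3 lower, KRT7, CLDN1 and KRT17 (limma, adjusted p under 0.05), beside 26.9% of all genes each way. In OE KRT8 was called higher and 4 lower, CLDN4 (-0.57), DSP, CLDN1 and KRT18, beside 16.9% and 18% of all genes. In bulk samples fewer cells of a type and less RNA per cell cannot be told apart.

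Most members were higher in both engineered groups than in parental cells, the exceptions being ALDOA, not called in either, and PKM, called lower. In KD 7 of the 9 members were called higher and 1 lower (limma, adjusted p under 0.05 over all genes), where 26.9% of all genes were called higher, 26.9% lower and 53.7% in either direction. In OE 7 were higher and 1 lower, against 16.9% of all genes higher, 18% lower and 34.8% in either direction. Between the engineered groups 3 members were higher in OE and 3 lower, against 23.5% of all genes higher, 23.8% lower and 47.3% in either direction. Abundant genes were called more often: of 1959 genes whose mean rlog was 12 or more, a limit chosen after seeing the data, 81.4% were called in KD, 67% in OE and 74.8% between OE and KD. All 7 members above that limit were called in KD and in OE. Of those 1959 genes, 758 were called higher and 837 lower in KD, and 594 and 718 in OE, while 6 of the 7 members were higher in each. The median difference of the 9 members was 0.14 in KD and 0.17 in OE, beside -0.00051 and 0.00039 over all genes. The KD and OE comparisons share the parental libraries and are not independent. Because the members were chosen with earlier results of these data known, their counts and medians beside all genes are descriptions, not a test.

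**Figure D1:**
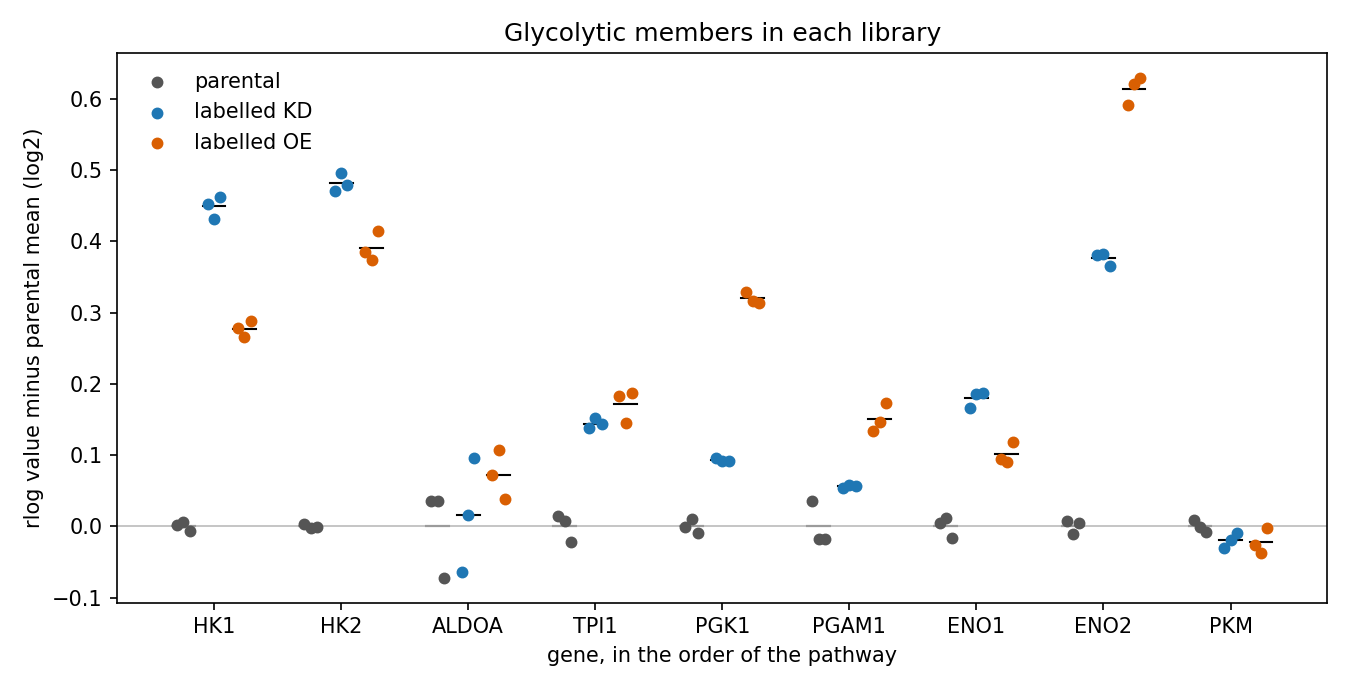
Each dot is 1 library, plotted as its rlog value minus the parental mean of the gene (log2), for the 9 members in pathway order; black bars are group means of 3 libraries. ENO2 in OE (0.61) and HK2 in KD (0.48) sit farthest from parental, and PKM (-0.02 in both) stays near 0.

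Promoters of the members were read because isoforms of a step can differ in the elements before their starts. RefSeq (GRCh38.p14) gave windows of 300 bases, 250 before and 50 after each start, for all 10 members, with 20 starts in all. ACGTG, the core of the hypoxia response element, was searched on both strands, so that it also reads CACGT, and so was the E-box CACGTG, which contains ACGTG on each strand. ACGTG was found for 6 of 10 members (HK2, ALDOA, ALDOC, TPI1, PGK1 and ENO2) and in 9 of 20 starts, beside 24.9% of 27305 genes and 21.4% of 35116 starts overall. CACGTG was found for 3 of 10 members (HK2, ALDOA and ALDOC), beside 8.78% of genes. Neither was found for HK1, PGAM1, ENO1 or PKM. A gene with more starts has more windows in which to match, and a match is a description of letters, not of binding. The 250 bases before the PGK1 start, on the plus strand at chrX:78103998-78104247, overlap no annotated exon and hold ACGTG or CACGT, in capitals, with first bases at -202 and -183 relative to the start.
PGK1: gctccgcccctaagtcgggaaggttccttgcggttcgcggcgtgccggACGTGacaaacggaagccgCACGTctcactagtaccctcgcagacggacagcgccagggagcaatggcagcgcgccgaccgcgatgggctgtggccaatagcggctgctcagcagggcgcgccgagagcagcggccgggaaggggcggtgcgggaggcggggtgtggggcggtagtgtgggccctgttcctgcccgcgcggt
Shorter stretches around 1 match each before other starts are given with the match in capitals, on the plus strand: HK2 at chr2:74834069-74834093 for the upstream start and chr2:74834966-74834991 for the downstream start, TPI1 at chr12:6868078-6868102, and ENO2 at chr12:6914452-6914476. These matches begin at -48, -194, -17 and -118 relative to their starts, and that of the downstream HK2 start is an E-box.
HK2 upstream start: tgggcgtgcgCACGTcactgatccg
HK2 downstream start: ttgctgcgccCACGTGggagggagcc
TPI1: tgcgccgccgCACGTagccccagac
ENO2: ccgcgctcgtACGTGcgcctccgcc

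Hexokinase traps glucose in the cell as glucose-6-phosphate. HK1 (ENSG00000156515, chr10:69269984-69401884, plus strand), the isoform found in most tissues, stood at rlog 13.04, 13.04 and 13.03 in parental, 13.49, 13.47 and 13.50 in KD and 13.31, 13.30 and 13.32 in OE. HK2 (ENSG00000159399, chr2:74834127-74893359, plus strand), the inducible isoform of muscle, fat and many tumours, stood at 12.74, 12.73 and 12.73 in parental, 13.20, 13.23 and 13.21 in KD and 13.12, 13.11 and 13.15 in OE. For both genes parental was lowest, OE intermediate and KD highest, and no library overlapped another group. Such lack of overlap, here and for the genes below, was common over all genes, as given above. HK1 was higher than parental by a difference of 0.45 in KD (standard error 0.014, adjusted p = 4.4e-23 from limma) and 0.28 in OE (adjusted p = 8.6e-17). HK2 was higher by 0.48 in KD (standard error 0.015, adjusted p = 3.8e-23 from limma) and 0.39 in OE (adjusted p = 7.5e-20). OE was below KD by a difference of -0.17 for HK1 (adjusted p = 3.7e-12 from limma) and -0.09 for HK2 (adjusted p = 5.1e-06).

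Both isoforms were expressed at this step, and their proportion depends on the length used. Per length, with linear values divided by the union of exons, HK1 made up 50.4%, 50.7% and 50.4% of the summed hexokinase level in the parental libraries, 50.3%, 49.4% and 50.3% in KD and 48.8%, 48.7% and 48.5% in OE. HK2 made up 47.6% ± 0.117 (SD, n = 3) in parental, 48.2% ± 0.435 in KD and 49.7% ± 0.206 in OE. HK1 led in all parental and KD libraries and HK2 in all OE libraries. Divided by the longest transcript, HK1 led in every group with 62.4% against 35.98% for HK2 in parental, 61.9% against 36.5% in KD and 60.6% against 37.9% in OE. With no division by length it led by 54.5% against 44.2% in parental. HKDC1, a hexokinase of low activity whose gene ends 2.43 kb before HK1 begins, moved with HK1, by 0.43 in KD (adjusted p = 1.8e-10 from limma) and 0.18 in OE (adjusted p = 0.0013). HK3, the form of blood cells, had a mean rlog of 0.69 in parental.

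Length cancels when an isoform ratio is compared between groups. The log2 ratio of HK2 to HK1 was -0.30, -0.31 and -0.29 in parental, -0.28, -0.24 and -0.28 in KD and -0.19, -0.19 and -0.17 in OE. The OE values lay above all others, while KD replicates 1 and 3 were close to parental. The mean ratio was higher by 0.11 in OE than in parental and by 0.08 in OE than in KD (p = 0.10 for each, exact permutation test, two-sided, the smallest p that 3 libraries against 3 can give). The KD difference of 0.03 (exact permutation p = 0.10) became 0.017 without KD replicate 2.

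Glucose-6-phosphate isomerase (GPI), which makes fructose-6-phosphate, was higher by a difference of 0.09 in KD and 0.15 in OE. Phosphofructokinase, the committed step, has liver (PFKL), muscle (PFKM) and platelet (PFKP) isoforms, and PFKP led in every library. PFKP made up 59.6%, 59.3% and 59.8% of the step per length in parental, 53.2%, 52.9% and 53.4% in KD and 57.6%, 57.4% and 57.8% in OE. These ranges did not overlap, and KD was lowest. PFKP fell by 0.18 in KD (standard error 0.015, adjusted p = 6.2e-12 from limma), and in OE its difference was -0.01 (adjusted p = 0.63). PFKL, by contrast, was higher by 0.30 in KD (adjusted p = 5.4e-14 from limma) and 0.15 in OE (adjusted p = 5.4e-07), and PFKM by 0.14 (adjusted p = 9.4e-09) and 0.08 (adjusted p = 1.2e-04). The share of PFKL was 13.6% ± 0.153 (SD, n = 3) in parental, 17.0% ± 0.0929 in KD and 14.7% ± 0.293 in OE. Around PFKP on chromosome 10, 73 other genes of the same 20-Mb block had a median difference of -0.14 in KD, and PFKP was lower than that median by a difference of -0.04.

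Aldolase splits fructose-1,6-bisphosphate, and ALDOA is its muscle and general form. ALDOA (ENSG00000149925, chr16:30064164-30070457, plus strand) stood at rlog 6.41, 6.41 and 6.30 in parental, 6.31, 6.39 and 6.47 in KD and 6.44, 6.48 and 6.41 in OE. The groups spread over one another in KD and parental, while the OE values began at the upper end of parental. The difference was 0.02 in KD (95% interval -0.08 to 0.12, adjusted p = 0.81 from limma) and 0.07 in OE (95% interval -0.03 to 0.17, adjusted p = 0.28), neither called. The level of ALDOA is uncertain, since 54.2% of its exonic bases lie in exons of other annotated genes. The largest partner, ENSG00000285043, runs through ALDOA on the same strand, shares 42.8% of its exonic bases and had a mean rlog of 6.26. How reads over shared bases were counted is not given in the sources used here, and reads of both genes cannot be told apart there. Which aldolase led cannot be stated without ALDOC, the brain form, and the ratio of ALDOC to ALDOA was not analysed here.

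Triosephosphate isomerase interconverts the 2 triose phosphates. TPI1 (ENSG00000111669, chr12:6867119-6870948, plus strand) stood at rlog 14.80, 14.79 and 14.76 in parental, 14.92, 14.94 and 14.93 in KD and 14.97, 14.93 and 14.97 in OE. Both engineered groups were above parental with no overlap, and they overlapped each other. TPI1 was higher by a difference of 0.14 in KD (standard error 0.012, adjusted p = 2.1e-12 from limma) and 0.17 in OE (adjusted p = 1.4e-13). The difference of 0.03 between OE and KD was not called (adjusted p = 0.054 from limma), but was called without OE replicate 2 (0.04, adjusted p = 0.0088), with library medians removed (0.03, adjusted p = 0.049) and with 20-Mb block medians removed (0.05, adjusted p = 0.0010). The pseudogene TPI1P1 had a mean rlog of 9.19, the highest of 7 pseudogenes of members with a row, and the counting could have moved reads between such copies.

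GAPDH, which oxidizes glyceraldehyde-3-phosphate and is often taken as a reference gene of constant level, was not constant here. It stood at rlog 17.03, 17.02 and 16.99 in parental, 17.23, 17.25 and 17.24 in KD and 17.15, 17.13 and 17.18 in OE. Every engineered library was above every parental library. The difference was 0.22 in KD (standard error 0.0096, adjusted p = 2.0e-19 from limma) and 0.14 in OE (adjusted p = 2.8e-13). An annotated antisense gene covers 17.6% of its exonic bases. GAPDHS, the sperm form, was near the bottom of the scale with 3.04, 3.01 and 2.96 in parental.

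Phosphoglycerate kinase makes the first ATP of the pathway. PGK1 (ENSG00000102144, chrX:77910739-78129295, plus strand), the form of somatic cells, stood at rlog 15.05, 15.06 and 15.04 in parental, 15.15, 15.15 and 15.14 in KD and 15.38, 15.37 and 15.37 in OE. Parental was lowest and OE highest, with no overlap between any groups. PGK1 was higher by a difference of 0.32 in OE (adjusted p = 1.5e-22 from limma, standard error 0.0095) and 0.09 in KD (adjusted p = 4.7e-10), and OE exceeded KD by 0.23 (adjusted p = 2.0e-19). Its promoter is the one shown above with ACGTG and CACGT. Of PGK2, the testis form, no value was analysed here.

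Phosphoglycerate mutase moves the phosphate group from carbon 3 to carbon 2. PGAM1 (ENSG00000171314, chr10:97426191-97433444, plus strand), the brain and general form, stood at rlog 13.92, 13.87 and 13.87 in parental, 13.94 in each of the KD libraries and 14.02, 14.03 and 14.06 in OE. The order was the same as for PGK1, parental then KD then OE, with parental replicate 1 close to KD. PGAM1 was higher by a difference of 0.06 in KD (standard error 0.014, adjusted p = 9.4e-04 from limma) and 0.15 in OE (adjusted p = 1.8e-10), and by 0.09 in OE over KD (adjusted p = 8.4e-07). PGAM1 has 13 annotated pseudogenes, of which 2 had a row, the higher at a mean rlog of 3.20.

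Enolase makes phosphoenolpyruvate. ENO1 (ENSG00000074800, chr1:8861000-8879190, minus strand), the general form, stood at rlog 16.97, 16.97 and 16.95 in parental, 17.13, 17.15 and 17.15 in KD and 17.06, 17.05 and 17.08 in OE. ENO2 (ENSG00000111674, chr12:6913745-6923698, plus strand), the neuronal form, stood at 11.09, 11.07 and 11.09 in parental, 11.47, 11.47 and 11.45 in KD and 11.68, 11.71 and 11.72 in OE. Both genes were lowest in parental and no groups overlapped, but ENO1 was highest in KD and ENO2 in OE. ENO2 had the largest difference of any member, 0.61 in OE (adjusted p = 9.5e-22 from limma, standard error 0.020), and 0.38 in KD (adjusted p = 4.0e-17). OE exceeded KD for ENO2 by 0.24 (adjusted p = 5.7e-12 from limma). ENO1 was higher by 0.18 in KD (standard error 0.0081, adjusted p = 6.6e-19 from limma) and 0.10 in OE (adjusted p = 6.1e-12), and OE was below KD by a difference of -0.08 (adjusted p = 6.0e-10).

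ENO1 dominated the step in all 9 libraries. Its share per length was 97.4% ± 0.0541 (SD, n = 3) in parental, 97.0% ± 0.00955 in KD and 96.5% ± 0.0446 in OE. ENO2 supplied 2.02%, 1.99% and 2.05% in parental, 2.33%, 2.31% and 2.28% in KD and 2.83%, 2.89% and 2.85% in OE. The share of ENO2 thus did not overlap between groups, although it was small in each. The mean log2 ratio of ENO2 to ENO1 was -5.88 ± 0.022 (SD, n = 3) in parental, -5.68 ± 0.018 in KD and -5.36 ± 0.017 in OE. The difference was 0.20 for KD and 0.51 for OE against parental and 0.32 for OE against KD (p = 0.10 for each, exact permutation test, two-sided, the smallest that 3 libraries against 3 allow). ENO3, the muscle form, gave 0.612% in parental and was higher by 0.37 in KD (adjusted p = 1.6e-11 from limma) and 0.10 in OE (adjusted p = 0.013). ENO4, a form of sperm, had a mean rlog of 0.57 in parental.

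**Figure D2:**
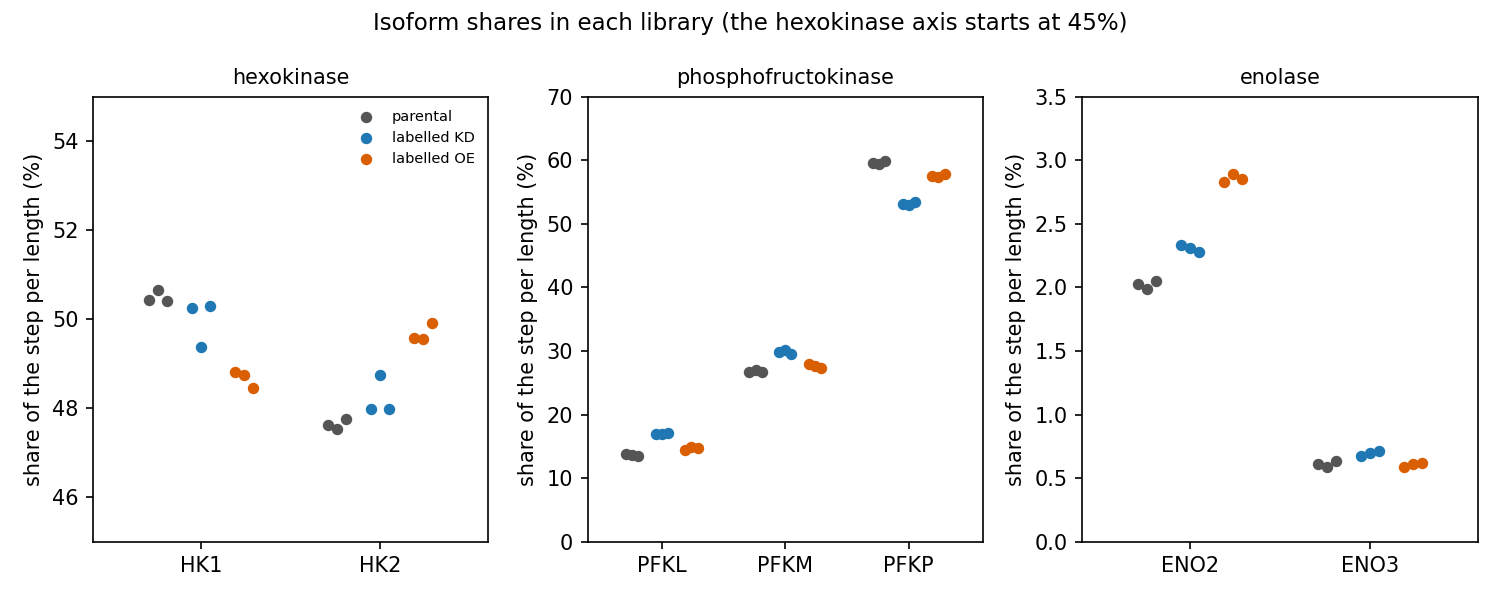
Each dot is the share (%) of an isoform in the summed linear level per exonic length of its step in 1 library, for hexokinase (axis from 45%), phosphofructokinase and enolase. With the union of exons as length HK1 and HK2 lie within a few percent of each other, PFKP is lowest in KD and ENO2 has a mean of 2.02% in parental and 2.86% in OE.

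Pyruvate kinase makes pyruvate and ATP in the last step. PKM (ENSG00000067225, chr15:72199029-72231819, minus strand) stood at rlog 16.71, 16.70 and 16.69 in parental, 16.67, 16.68 and 16.69 in KD and 16.67, 16.66 and 16.70 in OE. KD lay just below parental and OE overlapped it. PKM fell by 0.02 in KD (95% interval -0.04 to -0.0029, adjusted p = 0.043 from limma) and in OE (95% interval -0.04 to -0.0051, adjusted p = 0.038), the smallest called differences of any member. These calls depend on the settings: without the variance trend the adjusted p was 0.38 in KD and 0.39 in OE, with the fit limited to mean rlog values of 5 or more it was 0.18 and 0.17, and with library medians removed 0.16 and 0.15. With only the 2 compared groups in the fit the adjusted p in OE was 0.050, just past the limit. The call in KD was also lost without parental replicate 1 (adjusted p = 0.19) or 2 (0.080) and without KD replicate 1 (0.20) or 2 (0.097), and in OE without parental replicate 1 (0.18) or 2 (0.075) and without OE replicate 1 (0.12) or 2 (0.26). With 20-Mb block medians removed both calls were kept and the differences were larger, at -0.04 in KD (adjusted p = 5.1e-05 from limma) and -0.03 in OE (adjusted p = 0.0014). PKLR, the liver and red cell form, was not analysed here. Of the splicing factors that set the ratio of M1 to M2, 3 of 4 had values. In KD all 3 were called lower, where 26.9% of all genes were and 81.4% of those with a mean rlog of 12 or more were called either way. The differences were -0.09 for PTBP1 and SRSF3 and -0.05 for HNRNPA2B1. In OE PTBP1 was lower by -0.16 (adjusted p = 7.4e-12 from limma) while SRSF3 was higher by 0.04 and HNRNPA2B1 by 0.03.

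**Figure D3:**
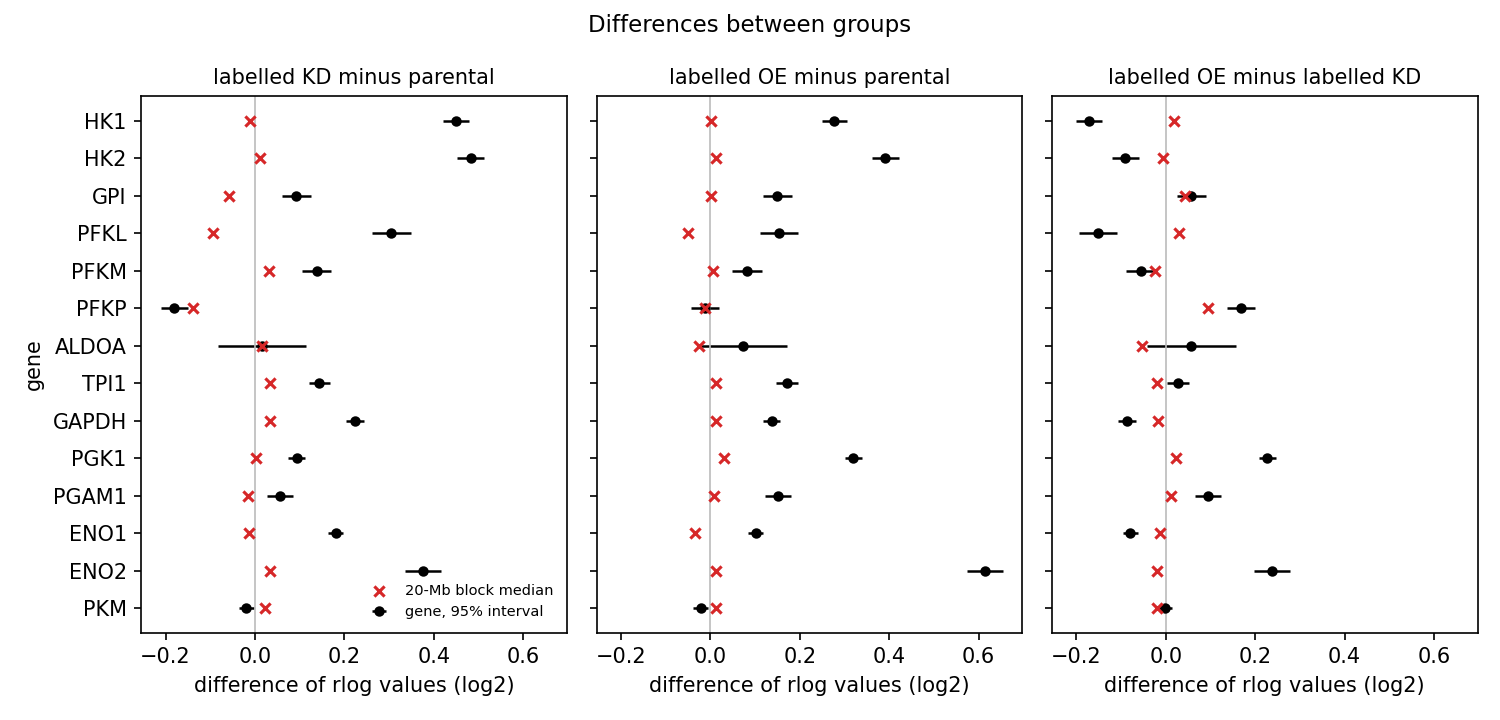
Black dots are differences of mean rlog values (log2) with 95% intervals from limma, unadjusted, for the members and the main genes of the other steps in 3 comparisons; red crosses are the median difference of the other genes in the same 20-Mb block. HK1, HK2 and ENO2 lie far from their block medians, whereas PFKP in KD (-0.18) lies near its own (-0.14).

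From TPI1 onward the members, except ENO2, stood above both hexokinases. In log2 level per kilobase of exons in parental, the order of the members was ENO1 (14.58), PKM (13.60), TPI1 (13.35), PGK1 (12.61), PGAM1 (12.54), HK1 (10.25), HK2 (10.17), ENO2 (8.99) and ALDOA (4.44). No neighbours in this order had overlapping ranges over the 3 parental libraries. The order was the same in KD, and in OE HK2 (10.56) passed HK1 (10.53). With the longest transcript as length PGAM1 ranked above PGK1 in every group and HK1 above HK2, so the order of these pairs rests on the length used. The 9 members together took 0.937% ± 0.0063 (SD, n = 3) of all summed linear values in parental, 1.01% ± 0.0057 in KD and 1.02% ± 0.0072 in OE. The 21 genes with values over the 10 steps took 1.40%, 1.54% and 1.52%.

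**Figure D4:**
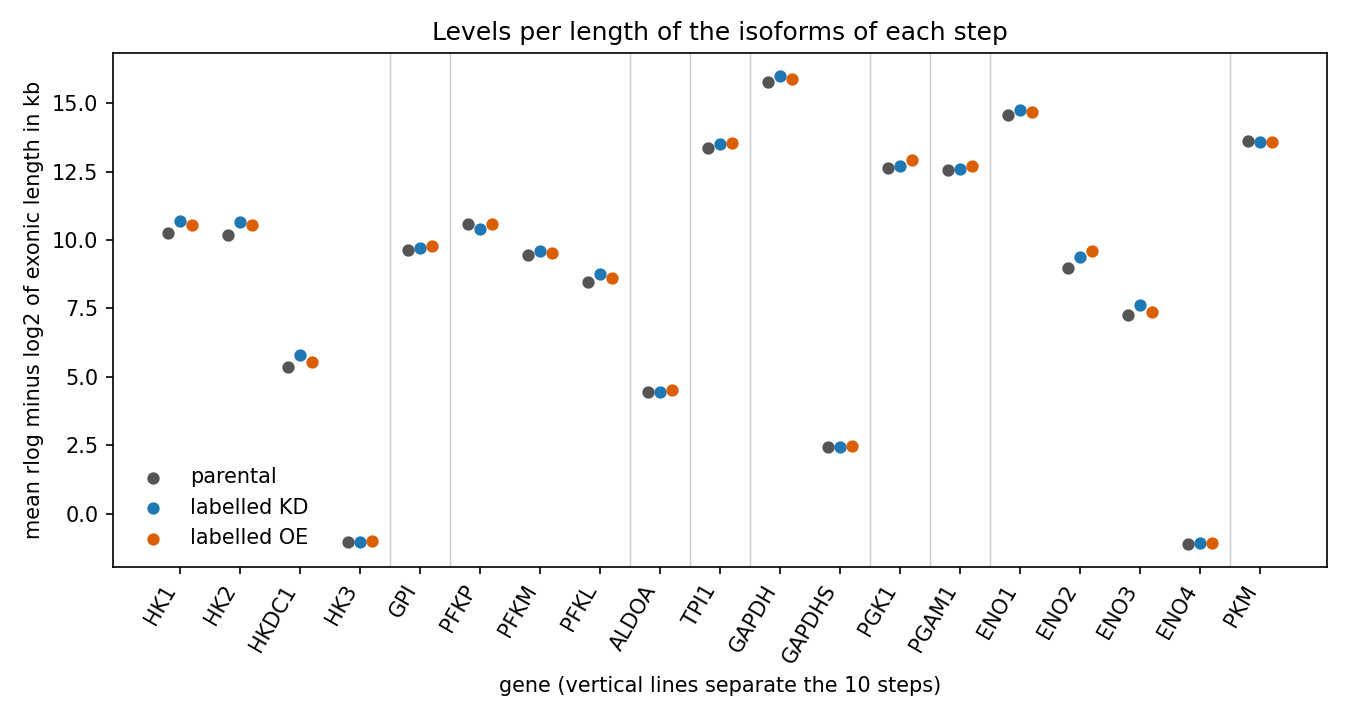
Dots are group means (n = 3) of rlog minus log2 of exonic length in kilobases for genes of the pathway, with vertical lines between the 10 steps. GAPDH and ENO1 (14.58 in parental) are highest, and HK3 and ENO4 lie below 0.

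Among the 16 other genes of these steps 12 had values. In KD 8 were higher and 1 lower (PFKP), beside 26.9% of all genes each way, and in OE 7 were higher and 0 lower, beside 16.9% and 18% (limma, adjusted p under 0.05). Between OE and KD 4 were higher and 5 lower, beside 23.5% and 23.8% of all genes. The 9 members with values lie on 7 chromosomes, but TPI1 and ENO2 lie 42.8 kb apart on chromosome 12, and GAPDH 329 kb from TPI1. The median difference of the 134 other genes in their 20-Mb block was 0.03 in KD and 0.01 in OE. With that median subtracted, ENO2 was still higher by 0.34 in KD and 0.60 in OE, and TPI1 by 0.11 and 0.16. For HK1 98 other genes had a block median of -0.01 in KD and 0.0023 in OE, and for HK2 123 other genes had 0.01 in each. Less its block median, the KD difference of GPI was 0.15 and that of SRSF3 -0.16, and the OE difference of HNRNPA2B1 was 0.0025.

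For the 3 members with the largest differences, the nearest profiles were sought among 9956 genes whose mean rlog was 8 or more, by the root mean square difference of gene-centred rlog values over the 9 libraries. For ENO2 these were PDE4B (0.023), COL8A1 (0.029) and BNIP3L (0.032), where the profile of ENO2 itself had a root mean square of 0.253. For HK2 they were ZNF395 (0.025), MEOX2 (0.028) and MYH10 (0.031), and for HK1 PBXIP1 (0.018), SEC23A (0.018) and KDM5B (0.021). No member was among them: HK1 was the 33rd nearest gene to HK2 (0.050), and for ENO2 the nearest member was PGK1 (0.137). The glycolytic genes did not share 1 profile, with HK1, HK2 and ENO1 highest in KD and PGK1, PGAM1 and ENO2 highest in OE.

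Of the 8 genes listed for entry and exit of carbon at the ends of the pathway 6 had values. In KD 2 were called higher and 2 lower, beside 26.9% of all genes each way, and in OE 5 higher and 0 lower, beside 16.9% and 18%. SLC2A3, the neuronal glucose transporter, was higher by a difference of 0.68 in KD (adjusted p = 1.0e-21 from limma) and 0.74 in OE (adjusted p = 1.0e-21). SLC2A1, the general glucose transporter, fell by 0.26 in KD (adjusted p = 2.9e-15) and was higher by 0.05 in OE (adjusted p = 0.024 from limma). PDK1, a kinase that holds back pyruvate dehydrogenase, was higher by 0.60 in KD and 0.59 in OE, whereas its relative PDK3 fell by 0.18 in KD and was higher by 0.31 in OE. Less the median of the 28 other genes in its block, the KD difference of PDK3 was -0.07. LDHA, which reduces pyruvate to lactate, had a difference of 0.02 in KD (adjusted p = 0.17 from limma) and was higher by 0.19 in OE (adjusted p = 2.4e-17).

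Of 11 genes that set glycolytic flux 9 had values. In KD 3 were called higher and 4 lower, where 26.9% of all genes were called each way, and in OE 3 higher and 1 lower, where 16.9% and 18% were. TXNIP, which limits glucose uptake and responds to glucose, was higher by a difference of 0.70 in KD (adjusted p = 2.0e-24 from limma) and 0.56 in OE (adjusted p = 8.2e-21). PFKFB3, which makes the activator of phosphofructokinase, was higher by 0.37 in KD (adjusted p = 6.7e-19 from limma) and 0.06 in OE (adjusted p = 0.0063), and OE was below KD by a difference of -0.31 (adjusted p = 8.2e-17). Its relative PFKFB2 was higher by 0.29 in KD (adjusted p = 5.2e-09 from limma) and PFKFB4 by 0.10 in OE (adjusted p = 1.3e-06). In KD the difference of PFKFB4 was -0.02 (adjusted p = 0.42 from limma), where the 184 other genes of its block had a median of -0.27, so that less this median it was 0.25. Among the lower genes were ADPGK, which phosphorylates glucose with ADP and fell by 0.12 in KD (adjusted p = 1.4e-05 from limma), and MLXIP, a glucose-responsive transcription factor, which fell by 0.10 in OE (adjusted p = 1.0e-04). Of the 8 genes of gluconeogenesis 3 had values. PC, pyruvate carboxylase, was the only one called, higher by 0.11 in KD (adjusted p = 6.1e-05 from limma), where 26.9% of all genes were called higher. By quantitative PCR the paper reported PC as lower in KD.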

How the data were processed

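The 9 mRNA libraries were made from total RNA by a TruSeq v2 preparation and sequenced in pairs of reads. Per the labels, the authors used cutadapt, HISAT2 against GRCh38, featureCounts and DESeq2; versions, annotation release and strand setting are not given in the sources used here. The deposited values are regularized log2 values of 22290 genes, of which 22195 matched a symbol; 3 further columns held 0 values. Groups were taken from the sample titles. Differences were fitted with limma 3.58.1 in R 4.3.3 (lmFit, eBayes with trend, all 9 libraries, no covariate), with Benjamini-Hochberg adjustment over all genes and calls at 0.05, two-sided. Lengths and overlaps came from GENCODE 44. Linear values are 2 to the power of rlog. Members and other genes of the steps were described, and from side lists only genes among the 4 largest called differences of a comparison. The members and lists were chosen with earlier results of these data known. Alternatives were no variance trend, the replicate block, 2 groups only, a mean rlog of at least 5, library medians, each library left out, 20-Mb block medians and other lengths.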

Additional observations from a re-analysis of the deposited data

How the results depend on the processing

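Same-numbered libraries shared no deviation that held for every pair: the correlation of deviations from group means ran from -0.07 to 0.14 over the 9 same-numbered pairs. Same-numbered pairs of OE with KD were all positive (0.12, 0.02 and 0.14), while different-numbered pairs of these groups ran from -0.14 to 0.03. The numbers were not treated as pairing in the main fit, and the replicate block was an alternative. With the replicate block 12015 genes were called in KD, 7854 in OE and 10623 between OE and KD, beside 11980, 7764 and 10552, and 8, 8 and 6 members, as without it. Leaving out 1 library gave 11106 to 11368, 6857 to 7325 and 9636 to 10004 genes, and 7 to 8, 7 to 8 and 6 to 7 members. No other alternative moved a count by over 1.5 times; with 20-Mb block medians removed 13557, 8587 and 11809 genes were called.

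Of 324 recomputed member differences 299 kept direction and call, 15 (all of PKM) lost the call and 3 (all of TPI1 between OE and KD) gained it. In 7 the sign changed, for differences that were not called: ALDOA in KD ranged from -0.024 to 0.056 with 1 library left out and was -0.00078 with block medians removed, and PKM between OE and KD ranged from -0.012 to 0.0053 and was 0.016. The HK2 to HK1 ratio in KD ranged from 0.017 to 0.041 with 1 library left out.

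The shrinkage of rlog values limits what the differences say about fold changes. Genes that overlap others (ALDOA, TRAP1, GAPDH) and pseudogene copies limit how levels can be read, and the reads counted in each library were not used here. Where a share moved with the length used, HK1 in parental was 62.4% with the longest transcript and 54.5% with no division.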
